A study of Arabidopsis thaliana with 12 samples.

Results

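The 88 genes described here had strongly lower transcript levels in developing seeds of the Arabidopsis mutant dellaq than in either of 2 sets of wild-type seeds. They were chosen by their measured levels in dellaq and wild-type seeds, from 33323 nuclear gene IDs (AT1G to AT5G). A gene was taken where the mean of the 3 Col-0-1 libraries and the mean of the 3 Col-0-2 libraries, with 1 FPKM added to each mean, were both at least 4 times the dellaq mean. FPKM, the authors' unit, is a number of fragments scaled to transcript length and to the size of the library. The dellaq and wild-type levels of the genes are therefore a description and carry no test, and the level in lec1-4 seeds, which took no part in the choice, is the measurement set against wild type. The ratio was reached by 198 genes against Col-0-1 and by 457 genes against Col-0-2.

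Poly-A RNA was sequenced from seeds dissected from siliques 9 days after pollination, in 12 libraries, 3 for each of 4 groups: dellaq, lec1-4, Col-0-1 and Col-0-2. All plants were kept at 22 °C under a day of 16 h light and 8 h dark. The labels call Col-0-1 and Col-0-2 wild type and name dellaq without its alleles, and they do not say which DELLA genes are mutated in dellaq or which wild-type set was grown for which mutant. Whether the replicates came from separate plants is not in the labels, so a p-value here covers the spread among these libraries alone, and that spread may be technical. Means are given ± SD over the 3 libraries of a group.

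DELLA proteins are nuclear repressors of gibberellin responses that are degraded when gibberellin binds its receptor. LEC1 encodes a subunit of a CCAAT-binding factor and drives the maturation of the embryo. A seed holds an embryo, an endosperm and a maternal seed coat, in which an inner cell layer makes proanthocyanidins (condensed tannins) and the outer layer deposits pectin-rich mucilage and thickened walls. Whole seeds were measured, so fewer cells of a type and less RNA per cell cannot be told apart.

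The libraries held roughly 13600000 to 19300000 fragments each, and 1 FPKM was reached by 18505 to 19404 genes. LEC1 had 2.63, 2.38 and 3.42 FPKM in lec1-4, against 80.8, 93.2 and 67.5 FPKM in Col-0-1 and 123, 124 and 124 FPKM in Col-0-2. Its 3 dellaq libraries had 44.6, 114 and 53.1 FPKM, with replicate 2 about as high as wild type. Of the 5 DELLA genes, RGL1 met the ratio of 4 and RGL2 averaged 4.66 ± 1.2 FPKM in dellaq, against 25.6 ± 0.528 FPKM in Col-0-1 and 16.9 ± 1.11 FPKM in Col-0-2. Plastid-encoded transcripts summed to 7116 to 8593 FPKM in dellaq and 127.4 to 186.3 FPKM in lec1-4, against 171.6 to 250.7 FPKM in Col-0-1 and 4523 to 5039 FPKM in Col-0-2. All IDs summed to 685533 to 687095 FPKM in lec1-4 and 685062 to 691811 FPKM in Col-0-1. The sums were 781827 to 786547 FPKM in dellaq and 755866 to 767347 FPKM in Col-0-2. By both sums lec1-4 stood nearer to Col-0-1, and dellaq nearer to Col-0-2. The wild-type sets thus differed from each other, and each lec1-4 result is given against both. The part of this difference in the lec1-4 comparisons was not tested.

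The median of the 88 mean levels was 2.97 FPKM in dellaq and 21.5 FPKM in lec1-4, against 22.1 FPKM in Col-0-1 and 30.4 FPKM in Col-0-2. The dellaq means ran from 0.205 to 81.8 FPKM and were under 1 FPKM for 19 genes. In all 88 genes the 3 dellaq libraries lay below the 6 wild-type libraries, a pattern that the choice favours and that 30.2% of 20056 tested nuclear genes showed. Summed over the 88 genes, the libraries held 639, 1053 and 544 FPKM in dellaq, 5138, 6036 and 5763 FPKM in lec1-4, 5151, 5737 and 4173 FPKM in Col-0-1 and 12125, 9684 and 9203 FPKM in Col-0-2. The dellaq sums were the lowest, the lec1-4 and Col-0-1 sums overlapped, and the Col-0-2 sums were the highest.

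Libraries of one group did not stand level for these genes. In dellaq, replicate 2 was the highest library in 57 of the 88 genes (64.8%, against 26.7% of tested genes), and in Col-0-1, replicate 3 was the lowest in 67 (76.1%, against 36.7%). Choosing without dellaq replicate 2 gave 112 genes, 83 of them among the 88, and without dellaq replicate 3 it gave 63 genes, all among the 88.

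**Figure D1:**
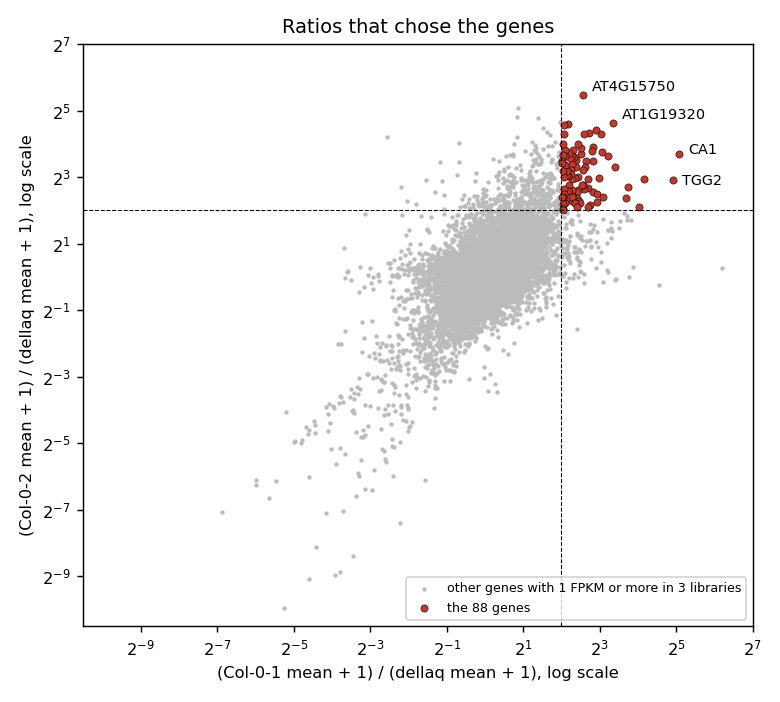
Ratio of the Col-0-1 mean to the dellaq mean (horizontal) and of the Col-0-2 mean to the dellaq mean (vertical), with 1 FPKM added to each mean, both on log scales; dashed lines mark a ratio of 4. The 88 genes (red) lie past both lines, and the other genes with at least 1 FPKM in 3 libraries are grey.

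By the smaller of its ratios, CA1 (AT3G01500), a beta-type carbonic anhydrase, stood farthest inside, with wild-type means 33.6 times (Col-0-1) and 13 times (Col-0-2) the dellaq mean. The other 9 of the top 10 were AT1G19320, PRP2, GSTF12, AT3G49307, AT2G19802, ECS1, RBCS2B, TGG2 and AT3G54550, which encode proteins as different as a thaumatin-like protein, a proline-rich wall protein and a myrosinase. Just inside the threshold were GLR2.4, AT1G52696 and ALD1, with smaller ratios of 4.04, 4.05 and 4.07, and just outside it SCPL11, GGT3 and AT4G36500, with 3.99, 3.98 and 3.93.

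Of the 88 genes, 85 are annotated as protein coding, 2 as transcribed pseudogenes and 1 as a noncoding RNA. By annotated product they fall into 11 groups: cell wall (13 genes), other annotated families (13), uncharacterized or noncoding (12), defence and immune signalling (10), small secreted cysteine-rich proteins (9), enzymes and transport (8), ubiquitin and kinase proteins (6), transcriptional regulators (5), wax and cuticle lipids (5), flavonoid and tannin (4) and carbon fixation (3). The groups were made once the genes were known, so the group sizes are a description.

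**Figure D2:**
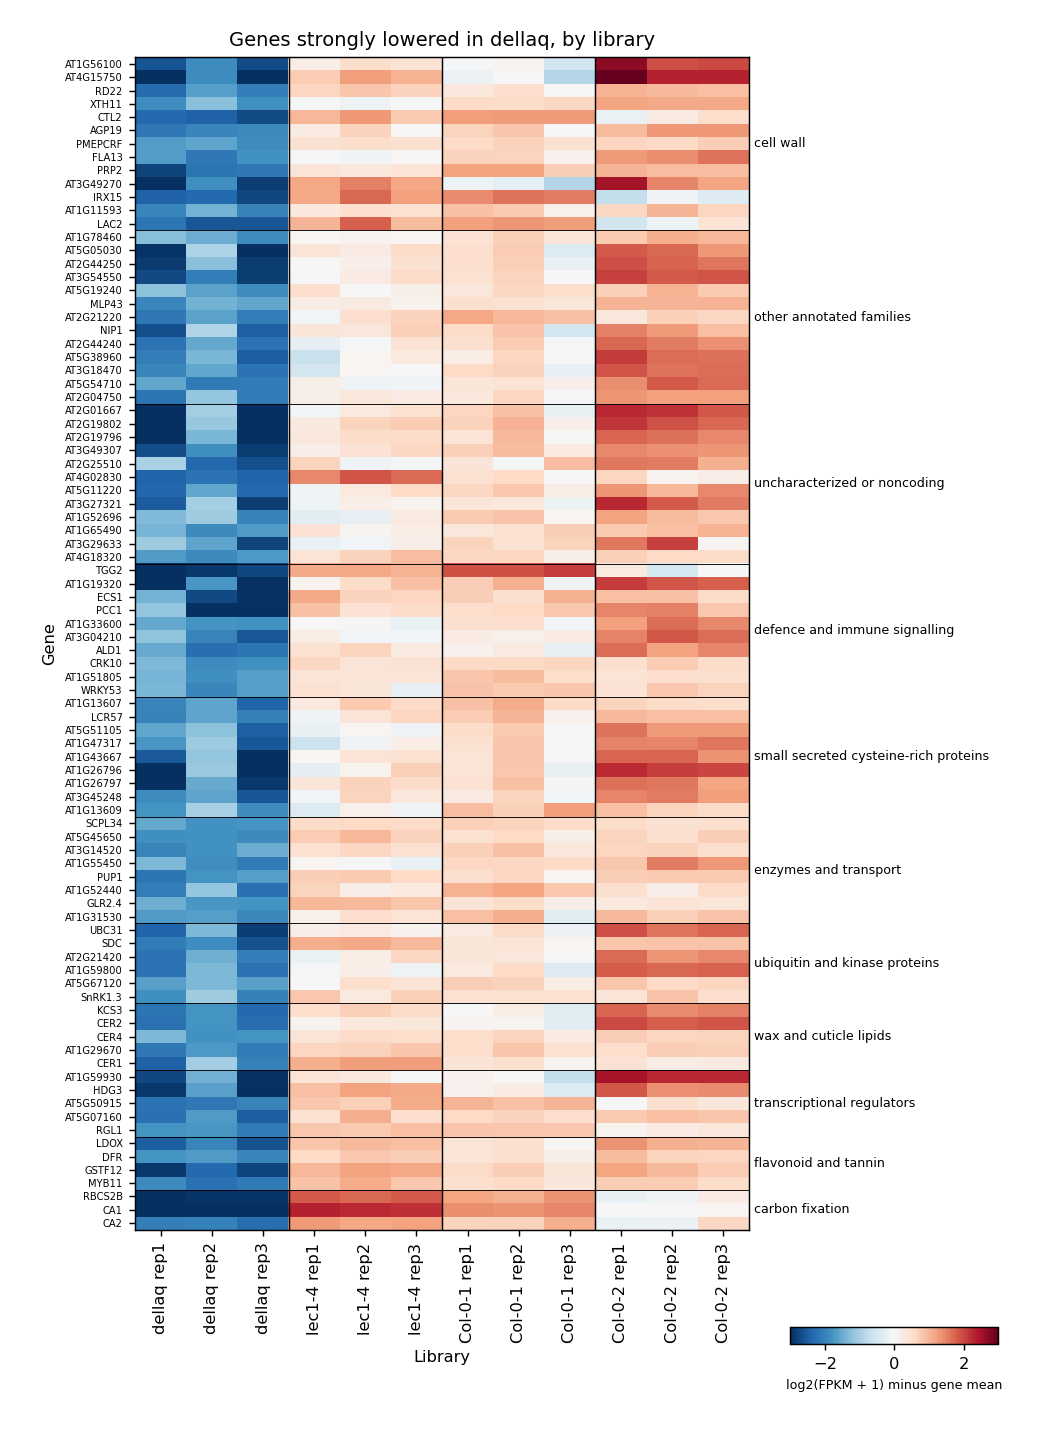
Level of each of the 88 genes (rows, by functional group) in each of the 12 libraries (columns), as log2(FPKM + 1) minus the gene's mean over libraries. The 3 dellaq columns are low in every row, lec1-4 resembles Col-0-1 in most rows, and Col-0-2 holds the highest levels of many cell wall, cysteine-rich and uncharacterized genes but lower levels of the carbon fixation genes.

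In lec1-4 seeds limma called 46 of the genes lower and 12 higher than in Col-0-2 (23.3% and 42.7% of all tested genes). Against Col-0-1 it called 10 lower and 16 higher (10.7% and 15.8%). The 3 lec1-4 libraries lay above the 3 dellaq libraries in all 88 genes (56.2% of tested genes), and the lec1-4 mean was at least 2 times the dellaq mean in 88 genes (9.41%), with 1 FPKM added. Because the genes were chosen for low dellaq levels, the choice favours both counts, and nothing is read from them. The ratio of lec1-4 to dellaq ran from 2.54 for AT1G52696 to 60.1 for CA1, with a median of 5.14. Within 1.5 times of wild type were 67 genes against Col-0-1, where 92.5% of tested genes were so near, and 30 genes against Col-0-2, where 73.2% were. The lec1-4 mean was nearer to the Col-0-1 mean than to the Col-0-2 mean in 65 genes, a share close to the 72.3% of tested genes. It was at least 4 times lower than wild type in 0 genes against Col-0-1 and in 1 gene, AT1G59930, against Col-0-2, and at least 4 times higher in 1 gene, CA1, against Col-0-2. Shares over all tested genes were not computed at 4 times, and nothing is read from these counts.

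Against Col-0-2, 46 of the 88 genes (52.3%) were lower and 12 (13.6%) higher in lec1-4 by limma at an adjusted p under 0.05, where 23.3% and 42.7% of all 20222 genes tested were lower and higher. The median log2 change was -0.64 for the 88 genes and 0.13 for all genes, and single genes ran from -2.09 (AT1G59930) to 2.21 (CA1). With scaling of the libraries by median ratios or upper quartiles, the median of all genes moved to -0.01 or 0.01, the shares of all genes became 32.3% lower and 29.6% higher or 30.7% lower and 31.6% higher, and the 88 genes had medians of -0.80 or -0.77. With 1 FPKM added, the lec1-4 mean was at least 2 times lower in 33 genes (6.37% of tested genes) and at least 2 times higher in 7 (4.65%). Because 1 FPKM was added before taking logs, these log2 changes come out too small for weakly expressed genes. The 88 genes were chosen for Col-0-2 means well above dellaq, which favours lower calls in lec1-4 against Col-0-2. The part of this choice in the excess of lower genes was not tested.

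Against Col-0-1, 10 genes (11.4%) were lower and 16 (18.2%) higher in lec1-4 by limma at an adjusted p under 0.05, beside 10.7% and 15.8% of all genes tested, so both shares were near the background. The median log2 change was -0.10 for the 88 genes and 0.05 for all genes, with a range from -1.10 (AT1G13609) to 1.71 (AT3G49270). The lec1-4 mean was at least 2 times lower in 1 gene (1.21% of tested genes) and at least 2 times higher in 4 (1.22%). These counts moved when libraries were left out: the 10 lower genes became 4 without Col-0-1 replicate 1, 5 without Col-0-1 replicate 2, and 6 without lec1-4 replicate 1 or replicate 3, and the 16 higher genes became 8 without Col-0-1 replicate 3 and 10 without lec1-4 replicate 2. Both comparisons, also within the functional groups below, use wild-type libraries that chose the genes by their high levels. The choice thus favours lower calls in lec1-4 against either set.

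Against both sets in the same direction, 6 genes were lower in lec1-4 (6.82%, against 4.01% of tested genes) and 5 were higher (5.68%, against 8.19%). The lower ones were AT1G13609, XTH11, AT1G55450, PRP2, FLA13 and AT1G78460, and the higher ones were CA1, RBCS2B, AT4G02830, CER1 and GLR2.4. The count of 6 was 3 without Col-0-1 replicate 1 and 10 without Col-0-1 replicate 3. KCS3 and AT4G15750 fell against Col-0-2 but rose against Col-0-1 (3.72% of tested genes were so), and TGG2 was the reverse (3.4%). Another 38 genes were lower than in Col-0-2 and not called against Col-0-1 (15.5% of tested genes had this pattern), and 18 were called against neither set (26.8%).

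**Figure D3:**
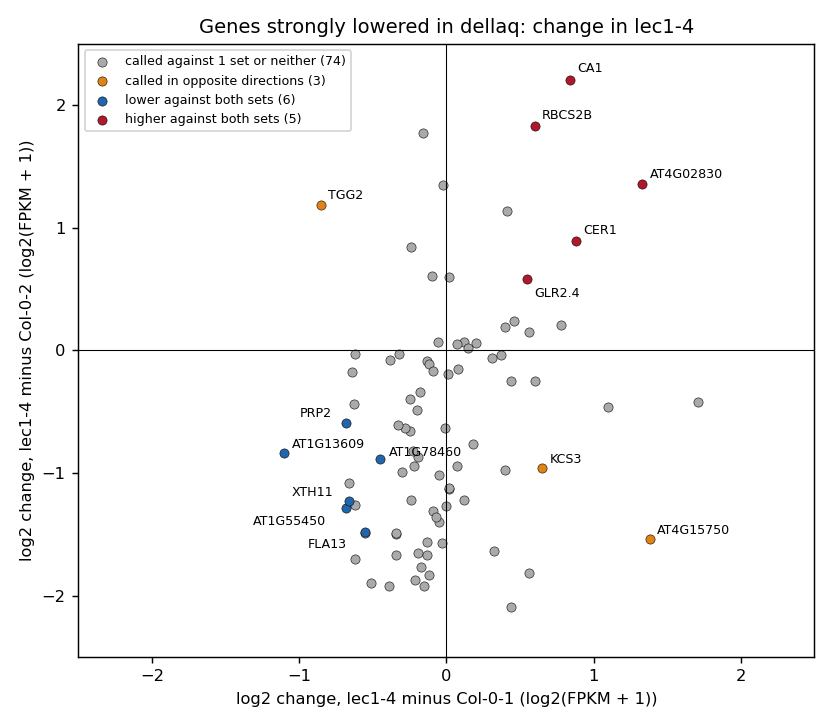
Log2 change of each of the 88 genes in lec1-4 against Col-0-1 (horizontal) and against Col-0-2 (vertical), on the log2(FPKM + 1) scale. Points are coloured where limma called the gene against both wild-type sets; most points lie below 0 on the vertical axis and near 0 on the horizontal axis.

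All 3 carbon fixation genes, CA1, CA2 and RBCS2B, were higher in lec1-4 than in Col-0-2 (42.7% of all tested genes), and CA1 and RBCS2B also higher than in Col-0-1 (15.8%). CA1 had 0.746, 0.509 and 0.676 FPKM in dellaq and 102, 97.2 and 94.3 FPKM in lec1-4, against 54, 52.2 and 56.6 FPKM in Col-0-1 and 19.9, 20.2 and 20.8 FPKM in Col-0-2. No group overlapped another: lec1-4 was the highest, then Col-0-1, then Col-0-2, and dellaq was the lowest. Of the CA1 exon bases, 10.5% overlap the gene AT3G01510 on the same strand, so the CA1 value is uncertain. The rise in lec1-4 was a log2 change of 0.84 ± 0.060 against Col-0-1 and 2.21 ± 0.060 against Col-0-2 (SE; limma, adjusted p = 1.37e-06 and 1.24e-10). RBCS2B (AT5G38420), a small subunit of the carbon-fixing enzyme Rubisco, kept the same order, with 5.57, 5.78 and 5.85 FPKM in dellaq, 186, 171 and 187 FPKM in lec1-4, 117, 109.7 and 131 FPKM in Col-0-1 and 43.8, 48.1 and 60.7 FPKM in Col-0-2. Its log2 changes in lec1-4 were 0.60 and 1.83 against Col-0-1 and Col-0-2 (limma, adjusted p = 0.000851 and 2.05e-08). RBCS2B is nearly identical to RBCS1B and RBCS3B, whose reads may be shared, so its single value is uncertain. CA2 (AT5G14740), a second carbonic anhydrase, had 0.425, 0.452 and 0.24 FPKM in dellaq, 13.4, 12.3 and 12.7 FPKM in lec1-4, 8.39, 8.59 and 11.4 FPKM in Col-0-1 and 4.14, 4.28 and 8.09 FPKM in Col-0-2. Its lec1-4 libraries lay above all 6 wild-type libraries. The difference was called against Col-0-2 (1.14, limma adjusted p = 0.000202) and not against Col-0-1 (0.41, adjusted p = 0.133).

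The other genes of a list of 17 nuclear photosynthesis genes were mixed. The list was made with earlier results of these data known, and RBCS3B and PRK are named for their small dellaq p-values. Of the 14 outside the 88, 6 were lower and 0 higher in dellaq against Col-0-1, where 50.9% of all tested genes were lower and 19.4% higher by limma at an adjusted p under 0.05. Against Col-0-2, 3 were lower and 11 higher, where 41.6% of all tested genes were lower and 21.9% higher. The 3 that were lower against both sets (28.4% of all tested genes) were RBCS1B, RBCS3B and RCA, which encode other Rubisco small subunits and Rubisco activase. Because RBCS1B and RBCS3B may share reads with RBCS2B, which is among the 88, their values are not separate from it. RBCS3B averaged 76 ± 6.3 FPKM in dellaq, 444 ± 8.08 FPKM in lec1-4, 344 ± 6.86 FPKM in Col-0-1 and 111 ± 5.85 FPKM in Col-0-2. Its log2 change in dellaq came to -2.17 against Col-0-1 and -0.55 against Col-0-2 (limma, adjusted p = 7.42e-11 and 3.83e-06). PRK, phosphoribulokinase of the Calvin cycle, fell in dellaq against Col-0-1 (-0.32) but rose against Col-0-2 (0.80; limma, adjusted p = 3.23e-05 and 2.08e-08). The most abundant small subunit gene, RBCS1A, averaged 2717 ± 115 FPKM in dellaq, 2151 ± 79.9 FPKM in lec1-4, 2708 ± 199 FPKM in Col-0-1 and 1740 ± 93.3 FPKM in Col-0-2. The medians of the 14 were -0.12 against Col-0-1 and 0.69 against Col-0-2. In lec1-4, 11 of the 17 genes were lower and 4 higher against Col-0-1 (10.7% and 15.8% of all tested genes), and 1 was lower and 13 higher against Col-0-2 (23.3% and 42.7%).

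The 4 flavonoid and tannin genes DFR, LDOX, GSTF12 and MYB11 were all higher in lec1-4 than in Col-0-1 (15.8% of all tested genes), and 0 of the 4 were called against Col-0-2. DFR (AT5G42800) and LDOX (AT4G22880) are consecutive enzymes on the way to anthocyanidins and tannins. LDOX had 32.8, 46.5 and 29.4 FPKM in dellaq, 333, 366 and 346 FPKM in lec1-4, 242, 261 and 192 FPKM in Col-0-1 and 479, 393 and 378 FPKM in Col-0-2. The dellaq libraries lay far below the rest, and the lec1-4 libraries fell between those of Col-0-1 and Col-0-2. Its log2 change in lec1-4 came to 0.60 ± 0.15 against Col-0-1 and -0.25 ± 0.15 against Col-0-2 (SE; limma, adjusted p = 0.0128 and 0.169). DFR had 57.8, 61.8 and 50.03 FPKM in dellaq, 307, 356 and 335 FPKM in lec1-4, 265, 279.8 and 227 FPKM in Col-0-1 and 393, 323 and 316 FPKM in Col-0-2. In lec1-4 the log2 changes were 0.37 and -0.04 against Col-0-1 and Col-0-2 (limma, adjusted p = 0.0194 and 0.73). GSTF12 (AT5G17220, also TT19) is a glutathione transferase needed for flavonoid pigments to reach the vacuole. It had 12.5, 19.1 and 13.7 FPKM in dellaq, 199, 231 and 222 FPKM in lec1-4, 149, 167 and 128 FPKM in Col-0-1 and 226, 196 and 169.6 FPKM in Col-0-2. Its wild-type means were 9.24 times (Col-0-1) and 12.3 times (Col-0-2) the dellaq mean. In lec1-4 its log2 change came to 0.56 against Col-0-1 and 0.15 against Col-0-2 (limma, adjusted p = 0.0128 and 0.384). MYB11 (AT3G62610), a MYB factor that activates flavonol genes, averaged 8.88 ± 1.175 FPKM in dellaq, 79 ± 9.12 FPKM in lec1-4, 57 ± 4.87 FPKM in Col-0-1 and 66.5 ± 5.55 FPKM in Col-0-2. It rose in lec1-4 against Col-0-1 (0.46, limma adjusted p = 0.00528). Against Col-0-2 the same gene was not called (0.24, limma adjusted p = 0.05, at the threshold).

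Genes of the same pathway outside the 88 were mostly lower in dellaq as well. Their dellaq and wild-type libraries are those that chose the 88, and the list was made with earlier results of these data known. The counts are therefore a description and not separate support, as for every list given here. BAN and TT4 are named for their small dellaq p-values. Of 15 tested flavonoid and tannin genes, 14 were lower and 0 higher against Col-0-1, and 13 were lower and 1 higher against Col-0-2, where 50.9% and 41.6% of all tested genes were lower. Against both sets 13 of the 15 were lower and 0 higher (28.4% and 9.78% of tested genes). The median log2 change of the 15 came to -0.96 against Col-0-1 and -1.42 against Col-0-2, beside -0.22 and -0.12 for all genes. BAN, an anthocyanidin reductase that commits the pathway to tannins, averaged 112 ± 12.2 FPKM in dellaq, 448 ± 11.8 FPKM in lec1-4, 354 ± 35.4 FPKM in Col-0-1 and 528 ± 56.7 FPKM in Col-0-2. The log2 changes in dellaq were -1.66 and -2.23 against Col-0-1 and Col-0-2 (limma, adjusted p = 2.48e-08 and 4.56e-09). TT4, chalcone synthase and the first enzyme of the pathway, averaged 159 ± 9.2 FPKM in dellaq, 653 ± 61.7 FPKM in lec1-4, 517 ± 84.2 FPKM in Col-0-1 and 886 ± 134 FPKM in Col-0-2. Its changes were -1.68 and -2.46 (limma, adjusted p = 2.2e-07 and 1.32e-08). The exceptions were FLS1, a flavonol synthase, at 72.3 ± 4.45 FPKM in dellaq, 62.9 ± 4.67 FPKM in lec1-4, 64.4 ± 5.47 FPKM in Col-0-1 and 67.8 ± 5.25 FPKM in Col-0-2, which was called against neither set, and the laccase TT10, at 641 ± 66.2 FPKM in dellaq, 741 ± 23.6 FPKM in lec1-4, 791 ± 17.9 FPKM in Col-0-1 and 560.3 ± 17.4 FPKM in Col-0-2. TT10 was called in opposite directions against the wild-type sets. F3H was listed at 0 in all 12 libraries. The sum of 10 seed coat markers was also lowest in dellaq, at 536 to 645 FPKM. It is not separate from the flavonoid list, as BAN, TT12 and TT16 are in both. The part of the seed coat in the flavonoid levels was not tested. In lec1-4, 8 of the 18 tested genes of the list, the 3 members included, were higher than in Col-0-1 and 0 lower (15.8% and 10.7% of all tested genes), and 5 were higher and 5 lower than in Col-0-2 (42.7% and 23.3%).

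**Figure D4:**
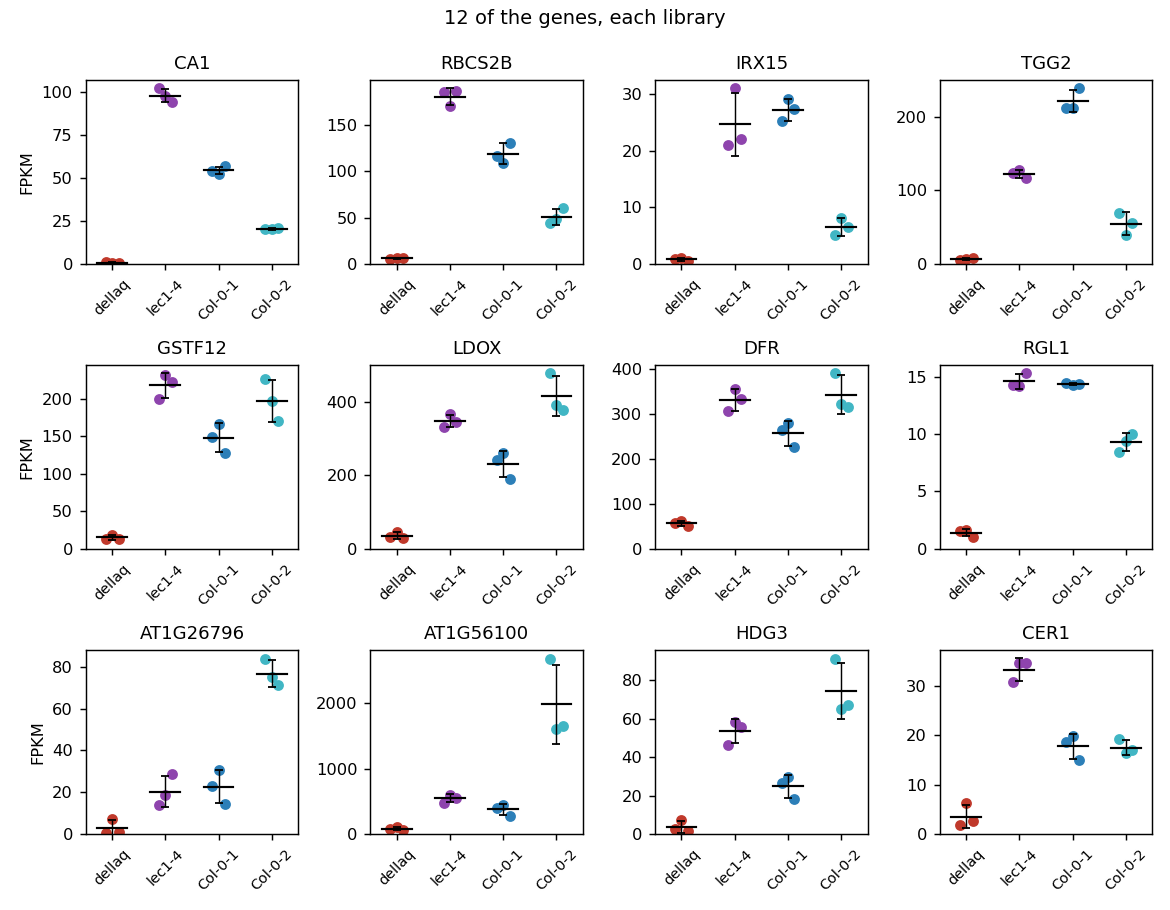
FPKM of 12 of the genes in each library (points), with the group mean (line) and SD (bar), n = 3 libraries per group; each panel has its own axis from 0. CA1, RBCS2B, IRX15 and TGG2 are low in Col-0-2 beside Col-0-1, whereas AT1G26796, AT1G56100 and HDG3 are highest in Col-0-2, and dellaq is lowest in every panel.

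In lec1-4, 6 of the 13 cell wall genes were lower and 3 higher against Col-0-2 (23.3% and 42.7% of all tested genes). Against Col-0-1, 3 were lower and 3 higher (10.7% and 15.8%). The most abundant were AT1G56100 and AT4G15750, both annotated in the family of invertase and pectin methylesterase inhibitors. AT1G56100 had 68.3, 113 and 64 FPKM in dellaq, 478, 599 and 556 FPKM in lec1-4, 402, 443 and 280.4 FPKM in Col-0-1 and 2680, 1609 and 1648 FPKM in Col-0-2. The lec1-4 libraries lay above all Col-0-1 libraries and below all Col-0-2 libraries. Of its exon bases, 21.1% overlap an annotated gene on the opposite strand, so its value is uncertain. Its log2 change in lec1-4 came to -1.82 ± 0.24 against Col-0-2 and 0.56 ± 0.24 against Col-0-1 (SE; limma, adjusted p = 3.26e-05 and 0.112). AT4G15750 had 14.4, 61.1 and 15.8 FPKM in dellaq, 389.9, 547 and 473 FPKM in lec1-4, 202, 224 and 124 FPKM in Col-0-1 and 1895, 1147 and 1151 FPKM in Col-0-2. It fell by 1.54 against Col-0-2 but rose by 1.38 against Col-0-1 on the log2 scale (limma, adjusted p = 0.00781 and 0.0341). The rise against Col-0-1 lost its call when any 1 lec1-4 library was left out, without Col-0-1 replicate 1 or 3, and with no filter on low values. The third gene annotated in that family, AT1G11593, averaged 1.47 ± 0.585 FPKM in dellaq, 10.4 ± 0.727 FPKM in lec1-4, 12.2 ± 3.27 FPKM in Col-0-1 and 13.5 ± 2.31 FPKM in Col-0-2 and was not called in lec1-4.

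RD22 (AT5G25610), a BURP-domain protein known as a dehydration and abscisic acid response gene, had 64.1, 101 and 77.2 FPKM in dellaq, 504, 575 and 523 FPKM in lec1-4, 401, 458 and 330.3 FPKM in Col-0-1 and 663, 630.5 and 603 FPKM in Col-0-2. It was higher in lec1-4 than in Col-0-1 (0.44, limma adjusted p = 0.0401) and not called against Col-0-2 (-0.25, adjusted p = 0.151). XTH11 (AT3G48580), an enzyme of the family that cuts and rejoins xyloglucan, was lower in lec1-4 than in both wild-type sets, with 19.8, 30.7 and 20.2 FPKM in dellaq, 71.1, 67.1 and 73.9 FPKM in lec1-4, 111, 109.6 and 116 FPKM in Col-0-1 and 172, 165 and 164 FPKM in Col-0-2. No libraries of different groups overlapped. The log2 changes in lec1-4 were -0.66 ± 0.12 and -1.23 ± 0.12 against Col-0-1 and Col-0-2 (SE; limma, adjusted p = 0.00178 and 2.78e-06). PRP2 (AT2G21140), a proline-rich wall protein, also fell in lec1-4, with 0.793, 1.67 and 1.77 FPKM in dellaq, 14.9, 14.2 and 15.2 FPKM in lec1-4, 27.1, 27.1 and 19.3 FPKM in Col-0-1 and 24, 22.3 and 22.1 FPKM in Col-0-2. Its lec1-4 libraries lay between the dellaq and the wild-type libraries, with log2 changes of -0.68 and -0.59 against Col-0-1 and Col-0-2 (limma, adjusted p = 0.00727 and 0.00527). FLA13 (AT5G44130), a fasciclin-like arabinogalactan protein, averaged 3.67 ± 0.742 FPKM in dellaq, 15.5 ± 0.816 FPKM in lec1-4, 23.4 ± 4.97 FPKM in Col-0-1 and 45.2 ± 5.61 FPKM in Col-0-2. Its lec1-4 log2 changes were -0.55 and -1.48 against Col-0-1 and Col-0-2 (limma, adjusted p = 0.0193 and 3.81e-06). Its call against Col-0-1 was lost when any 1 of 4 libraries was left out: lec1-4 replicate 1 or 2, or Col-0-1 replicate 1 or 2.

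CTL2 is a chitinase-like protein linked to cellulose in secondary walls, IRX15 is needed for xylan synthesis, and LAC2 is a laccase, of the family that polymerises lignin. These 3 genes were higher in lec1-4 than in Col-0-2 and not called against Col-0-1. IRX15 (AT3G50220) had 0.823, 0.952 and 0.465 FPKM in dellaq, 21, 31.1 and 22 FPKM in lec1-4, 25.3, 29.2 and 27.4 FPKM in Col-0-1 and 5.005, 8.06 and 6.46 FPKM in Col-0-2. Its lec1-4 and Col-0-1 libraries overlapped, and Col-0-2 lay between them and dellaq. In lec1-4 the log2 change came to 1.77 ± 0.17 against Col-0-2 and -0.16 ± 0.17 against Col-0-1 (SE; limma, adjusted p = 2.14e-06 and 0.534). CTL2 (AT3G16920) averaged 5.22 ± 0.74 FPKM in dellaq, 70.3 ± 13.3 FPKM in lec1-4, 82.2 ± 1.23 FPKM in Col-0-1 and 39.2 ± 9.77 FPKM in Col-0-2. LAC2 (AT2G29130) averaged 0.335 ± 0.22 FPKM in dellaq, 16.7 ± 6.18 FPKM in lec1-4, 16.3 ± 0.643 FPKM in Col-0-1 and 5.93 ± 2.32 FPKM in Col-0-2. AGP19 (AT1G68725), an arabinogalactan protein, averaged 6.12 ± 0.583 FPKM in dellaq, 35.4 ± 8.87 FPKM in lec1-4, 40.7 ± 11.5 FPKM in Col-0-1 and 64.5 ± 8.86 FPKM in Col-0-2. Of its exon bases, 68.8% are shared with an annotated gene on the opposite strand, and its value is uncertain in libraries that do not mark strand. PMEPCRF (AT5G53370), a pectin methylesterase, averaged 8.49 ± 1.06 FPKM in dellaq, 42.4 ± 0.887 FPKM in lec1-4, 45.2 ± 3.73 FPKM in Col-0-1 and 47.9 ± 2.27 FPKM in Col-0-2 and was called against neither set. The extensin-like gene AT3G49270 had 0.238, 1.75 and 0.402 FPKM in dellaq, 21.1, 27.2 and 21.2 FPKM in lec1-4, 7.92, 7.23 and 4.36 FPKM in Col-0-1 and 54.4, 26.1 and 21.3 FPKM in Col-0-2. It rose by 1.71 on the log2 scale in lec1-4 against Col-0-1 (limma, adjusted p = 0.00326), with no call against Col-0-2 (adjusted p = 0.298).

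A list of 7 other secondary wall genes, the cellulose synthases among them, was lower in dellaq than in Col-0-1 in 7 genes (50.9% of all tested genes), and than in Col-0-2 in 6 genes (41.6%) with 1 higher (21.9%). The medians were -2.76 and -1.12 on the log2 scale, beside -0.22 and -0.12 for all genes. These libraries also chose the 88 genes. CESA4 and IRX12, and below them the mucilage genes MYB61 and GAUT11, are named for their small dellaq p-values. CESA4, a secondary wall cellulose synthase, averaged 3.06 ± 0.14 FPKM in dellaq, 49.2 ± 11.3 FPKM in lec1-4, 52.2 ± 0.669 FPKM in Col-0-1 and 13.4 ± 3.05 FPKM in Col-0-2. In dellaq its log2 changes were -3.71 and -1.81 against Col-0-1 and Col-0-2 (limma, adjusted p = 2.28e-09 and 7.36e-07). IRX12, a laccase, averaged 5.24 ± 0.402 FPKM in dellaq, 69.6 ± 15 FPKM in lec1-4, 80.3 ± 0.33 FPKM in Col-0-1 and 19.2 ± 4.6 FPKM in Col-0-2. For IRX12 the changes were -3.71 and -1.67 (limma, adjusted p = 2.49e-09 and 1.61e-06). The exception was IRX9, a xylan synthesis gene, at 75.9 ± 7.03 FPKM in dellaq, 102 ± 13 FPKM in lec1-4, 95.7 ± 12.6 FPKM in Col-0-1 and 20.9 ± 0.796 FPKM in Col-0-2. The 7 genes summed to 88.6 to 104 FPKM in dellaq and 259 to 355 FPKM in lec1-4, against 310 to 331 FPKM in Col-0-1 and 66.5 to 93.0 FPKM in Col-0-2. IRX9 made up most of the dellaq sum, so the sum hides that the other 6 genes were lower in dellaq than in Col-0-2. In lec1-4, 7 of 7 were higher than in Col-0-2 (42.7% of all tested genes), and 0 were called against Col-0-1. The sum of 5 fruit wall markers was likewise lower in dellaq and Col-0-2 than in lec1-4 and Col-0-1, and its part in these levels was not tested. Of 22 tested mucilage genes, none of them among the 88, 15 were lower and 1 higher in dellaq against Col-0-1 (50.9% and 19.4% of all tested genes). Against Col-0-2, 18 were lower and 1 higher (41.6% and 21.9%), and 15 were lower against both (28.4%), with medians of -0.61 and -0.52. MYB61, a MYB factor needed for mucilage, averaged 50.8 ± 3.59 FPKM in dellaq, 129 ± 5.14 FPKM in lec1-4, 124 ± 3.96 FPKM in Col-0-1 and 98.4 ± 4.52 FPKM in Col-0-2. For MYB61 the changes were -1.27 and -0.94 (limma, adjusted p = 3.1e-09 and 3.34e-08). GAUT11, a pectin galacturonosyltransferase, averaged 10.2 ± 0.381 FPKM in dellaq, 21.1 ± 1.06 FPKM in lec1-4, 19.1 ± 1.32 FPKM in Col-0-1 and 20.1 ± 1.77 FPKM in Col-0-2. For GAUT11 the changes were -0.85 and -0.91 (limma, adjusted p = 6.81e-07 and 3.57e-07). In lec1-4, 1 mucilage gene was lower and 1 higher against Col-0-1 (10.7% and 15.8% of all tested genes), and 7 were lower and 10 higher against Col-0-2 (23.3% and 42.7%).

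The 5 wax and cuticle genes act on surface lipids: KCS3 belongs to the ketoacyl-CoA synthases of fatty acid elongation, CER2 takes part in making very long chains, CER4 makes primary alcohols, CER1 makes alkanes, and AT1G29670 is a GDSL-type lipase. CER1 (AT1G02205) had 1.78, 6.18 and 2.63 FPKM in dellaq, 30.7, 34.5 and 34.6 FPKM in lec1-4, 18.6, 19.8 and 14.9 FPKM in Col-0-1 and 19.3, 16.3 and 16.9 FPKM in Col-0-2. The lec1-4 libraries were above all wild-type libraries, and dellaq replicate 2 was more than 2 times the other dellaq libraries. Its log2 change in lec1-4 came to 0.88 ± 0.25 against Col-0-1 and 0.89 ± 0.25 against Col-0-2 (SE; limma, adjusted p = 0.0234 and 0.00818), and the call against Col-0-1 was lost without lec1-4 replicate 2 or 3, without Col-0-1 replicate 1 or 3, and with a pseudocount of 0.1. CER2 (AT4G24510), of which 19.4% of the exon bases overlap a gene on the opposite strand, had 3.2, 4.73 and 3.02 FPKM in dellaq, 20.2, 23.8 and 24.2 FPKM in lec1-4, 19.99, 19.97 and 14.6 FPKM in Col-0-1 and 77.4, 68.5 and 72.6 FPKM in Col-0-2. It was lower in lec1-4 than in Col-0-2 (-1.64, limma adjusted p = 9.09e-07) with no call against Col-0-1 (0.32, adjusted p = 0.122). KCS3 (AT1G07720) had 8.12, 11.1 and 7.25 FPKM in dellaq, 59.3, 67.9 and 60.04 FPKM in lec1-4, 40.4, 47.5 and 31.4 FPKM in Col-0-1 and 139.5, 111 and 119 FPKM in Col-0-2. Its lec1-4 libraries lay between the wild-type sets, above Col-0-1 (0.65, limma adjusted p = 0.00839) and below Col-0-2 (-0.96, limma adjusted p = 0.000156). CER4 averaged 4.54 ± 1.09 FPKM in dellaq, 23.2 ± 1.69 FPKM in lec1-4, 23.2 ± 3.56 FPKM in Col-0-1 and 26.7 ± 0.849 FPKM in Col-0-2. AT1G29670 averaged 2.82 ± 0.649 FPKM in dellaq, 23.9 ± 1.71 FPKM in lec1-4, 22 ± 3.15 FPKM in Col-0-1 and 22.8 ± 1.9 FPKM in Col-0-2. Neither CER4 nor AT1G29670 was called against either set.

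Of the 10 genes of defence and immune signalling, 4 were lower and 1 higher in lec1-4 against Col-0-2 (23.3% and 42.7% of all tested genes), and 3 were lower and 0 higher against Col-0-1 (10.7% and 15.8%). TGG2 (AT5G25980), a myrosinase that breaks down glucosinolates, had 4.66, 6.69 and 7.63 FPKM in dellaq, 124, 128 and 117 FPKM in lec1-4, 213, 213 and 239 FPKM in Col-0-1 and 69.3, 38.7 and 56 FPKM in Col-0-2. The lec1-4 libraries lay between the wild-type sets with no overlap, below Col-0-1 (-0.85 ± 0.18, SE) and above Col-0-2 (1.19 ± 0.18, SE; limma, adjusted p = 0.00456 and 9.87e-05). AT1G19320, a thaumatin-like protein, had 4.06, 14.2 and 2.25 FPKM in dellaq, 53.5, 73.3 and 94 FPKM in lec1-4, 83.8, 106 and 46.1 FPKM in Col-0-1 and 217, 186 and 174 FPKM in Col-0-2. Replicate 2 was the highest dellaq library and replicate 3 the lowest Col-0-1 library, and lec1-4 overlapped Col-0-1. It fell in lec1-4 against Col-0-2 (-1.40, limma adjusted p = 0.0166).

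ECS1 (AT1G31580), a cell wall protein studied in bacterial infection, and PCC1 (AT3G22231), a small pathogen-responsive protein, had their highest dellaq value in replicate 1. ECS1 had 12.6, 4.47 and 3.57 FPKM in dellaq, 78.3, 57 and 55.5 FPKM in lec1-4, 58.8, 49 and 74.6 FPKM in Col-0-1 and 66.3, 64.6 and 51.7 FPKM in Col-0-2. PCC1 averaged 3.88 ± 4.38 FPKM in dellaq, 33.5 ± 5.65 FPKM in lec1-4, 33.5 ± 3.63 FPKM in Col-0-1 and 53.3 ± 13.5 FPKM in Col-0-2. Both genes were called against neither set in lec1-4. AT1G33600, with leucine-rich repeats, averaged 2.98 ± 0.469 FPKM in dellaq, 11.7 ± 1.11 FPKM in lec1-4, 15.3 ± 3.44 FPKM in Col-0-1 and 35.1 ± 5.47 FPKM in Col-0-2. It fell in lec1-4 against Col-0-2 (-1.50, limma adjusted p = 4.39e-06). AT3G04210, of the TIR-NBS disease resistance class, averaged 1.96 ± 1.37 FPKM in dellaq, 9.6 ± 1.38 FPKM in lec1-4, 11.1 ± 0.477 FPKM in Col-0-1 and 32.4 ± 4.27 FPKM in Col-0-2. It fell against Col-0-2 (-1.65, limma adjusted p = 7.81e-05). ALD1 (AT2G13810), an aminotransferase that makes the precursor of the immune signal pipecolic acid, averaged 1.57 ± 0.784 FPKM in dellaq, 12.8 ± 1.94 FPKM in lec1-4, 9.46 ± 1.77 FPKM in Col-0-1 and 26.3 ± 4.4 FPKM in Col-0-2. It also fell against Col-0-2 (-0.98, limma adjusted p = 0.000877). AT1G51805, a leucine-rich repeat kinase, averaged 1.45 ± 0.385 FPKM in dellaq, 8.86 ± 0.0564 FPKM in lec1-4, 12 ± 1.86 FPKM in Col-0-1 and 9.4 ± 0.411 FPKM in Col-0-2. It fell in lec1-4 against Col-0-1 (-0.38, limma adjusted p = 0.0339). So did WRKY53, a WRKY factor of leaf ageing and defence, at 0.812 ± 0.365 FPKM in dellaq, 5.59 ± 1.61 FPKM in lec1-4, 8.96 ± 0.305 FPKM in Col-0-1 and 7.81 ± 1.16 FPKM in Col-0-2 (-0.63, limma adjusted p = 0.0264). For WRKY53, 20.5% of the exon bases overlap a gene on the opposite strand. The receptor-like kinase CRK10 averaged 2.11 ± 0.67 FPKM in dellaq, 12.9 ± 1.25 FPKM in lec1-4, 14.1 ± 0.227 FPKM in Col-0-1 and 14 ± 1.48 FPKM in Col-0-2 and was called against neither set.

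For small secreted cysteine-rich proteins, 8 of the 9 genes were lower in lec1-4 than in Col-0-2 (23.3% of all tested genes) and 1 lower than in Col-0-1 (10.7%), with 0 higher against either (42.7% and 15.8%). They comprise 3 defensin-like genes and the related LCR57, 2 genes of the ECA1 family, 2 of the S1 self-incompatibility family and 1 of the lipid-transfer protein superfamily. AT1G13607, a defensin-like gene, was the most abundant, with 66.3, 87.1 and 48.9 FPKM in dellaq, 322, 454 and 397 FPKM in lec1-4, 487, 576 and 402 FPKM in Col-0-1 and 421, 386 and 382 FPKM in Col-0-2. Its lec1-4 libraries overlapped both wild-type sets, and it was the 1 gene of the group not called against Col-0-2. AT1G13609, a second defensin-like gene with 1 annotated gene between it and AT1G13607, had 4.93, 9.38 and 4.65 FPKM in dellaq, 14.5, 21.9 and 18.1 FPKM in lec1-4, 38.5, 33 and 48.3 FPKM in Col-0-1 and 37.4, 31.9 and 29.8 FPKM in Col-0-2. The lec1-4 libraries lay below all 6 wild-type libraries, with log2 changes of -1.10 ± 0.22 and -0.84 ± 0.22 against Col-0-1 and Col-0-2 (SE; limma, adjusted p = 0.00296 and 0.00466).

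The neighbouring S1-family genes AT1G26796 and AT1G26797 showed a wide spread inside dellaq. AT1G26796 had 0.676, 7.39 and 0.801 FPKM in dellaq, 13.9, 18.4 and 28.6 FPKM in lec1-4, 23, 30.6 and 14.5 FPKM in Col-0-1 and 83.8, 75 and 71.4 FPKM in Col-0-2. Dellaq replicate 2 was about 10 times the other dellaq libraries but still below every wild-type library, lec1-4 overlapped Col-0-1, and Col-0-2 was above all others. The fall in lec1-4 against Col-0-2 was -1.92 ± 0.50 on the log2 scale (SE; limma, adjusted p = 0.00483), and AT1G26797 fell by 0.94 (adjusted p = 0.0238). LCR57 (AT5G42242) averaged 15.2 ± 2.9 FPKM in dellaq, 72.8 ± 18.4 FPKM in lec1-4, 92.8 ± 28.1 FPKM in Col-0-1 and 109 ± 3.09 FPKM in Col-0-2. The ECA1-family gene AT5G51105 averaged 10.01 ± 4.34 FPKM in dellaq, 31.7 ± 3.24 FPKM in lec1-4, 47.9 ± 12.7 FPKM in Col-0-1 and 91 ± 13.4 FPKM in Col-0-2. All exon bases of AT5G51105 overlap a gene on the opposite strand, so its value is uncertain. The defensin-like gene AT1G47317 and the lipid-transfer type gene AT1G43667 averaged 7.59 ± 4.15 and 4.97 ± 4.45 FPKM in dellaq and 23.7 ± 7.06 and 30.1 ± 4.49 FPKM in lec1-4, against 36.7 ± 10.1 and 33 ± 9.95 FPKM in Col-0-1 and 77 ± 4.44 and 76.4 ± 11.7 FPKM in Col-0-2. The other ECA1-family gene, AT3G45248, averaged 4.51 ± 1.76 FPKM in dellaq, 26 ± 6.81 FPKM in lec1-4, 25.7 ± 6.8 FPKM in Col-0-1 and 56.8 ± 6.01 FPKM in Col-0-2.

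Among the 5 transcriptional regulators, 1 was lower and 2 higher in lec1-4 against Col-0-2 (23.3% and 42.7% of all tested genes), and 1 was higher than in Col-0-1 (15.8%). RGL1 (AT1G66350), a DELLA gene, had 1.51, 1.61 and 1.05 FPKM in dellaq, 14.3, 14.2 and 15.3 FPKM in lec1-4, 14.5, 14.3 and 14.4 FPKM in Col-0-1 and 8.43, 9.41 and 10 FPKM in Col-0-2. The dellaq libraries were lowest, Col-0-2 lay between, and lec1-4 overlapped Col-0-1. Whether RGL1 is itself mutated in dellaq is not in the labels, so a response and the mutation cannot be told apart. In lec1-4 it was higher than in Col-0-2 (0.60 ± 0.094, SE; limma, adjusted p = 0.000122) and not called against Col-0-1 (0.02 ± 0.094, SE; adjusted p = 0.917). The MADS-box gene AT1G59930, annotated as maternally expressed and imprinted, had 3.59, 10.1 and 2.89 FPKM in dellaq, 39.5, 36.6 and 29.7 FPKM in lec1-4, 32.4, 29.4 and 17.6 FPKM in Col-0-1 and 168, 145 and 145 FPKM in Col-0-2. Its lec1-4 level was more than 4 times below Col-0-2 (-2.09 ± 0.32, SE; limma, adjusted p = 0.000114) and overlapped Col-0-1. HDG3 (AT2G32370), a homeodomain gene known as paternally expressed in the endosperm, had 2.43, 7.23 and 1.52 FPKM in dellaq, 46.5, 58.3 and 55.5 FPKM in lec1-4, 26.7, 29.4 and 18 FPKM in Col-0-1 and 91.2, 65 and 67.3 FPKM in Col-0-2. The lec1-4 libraries lay between the wild-type sets, above Col-0-1 (1.10, limma adjusted p = 0.0296) and, without a call, below Col-0-2 (-0.46, adjusted p = 0.245). AT5G50915, a basic helix-loop-helix factor, averaged 3.14 ± 0.333 FPKM in dellaq, 32.1 ± 4.82 FPKM in lec1-4, 34.3 ± 1.8 FPKM in Col-0-1 and 20.8 ± 3.7 FPKM in Col-0-2. It was higher in lec1-4 than in Col-0-2 (0.61, limma adjusted p = 0.000936). The bZIP factor AT5G07160 averaged 2.55 ± 1.03 FPKM in dellaq, 24 ± 6.44 FPKM in lec1-4, 22.1 ± 1.43 FPKM in Col-0-1 and 26.2 ± 1.04 FPKM in Col-0-2 and was called against neither set.

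Of 26 other tested gibberellin genes, 17 were lower and 3 higher in dellaq against Col-0-1 (50.9% and 19.4% of all tested genes). Against Col-0-2, 11 were lower and 6 higher, shares near those of all tested genes (41.6% and 21.9%), and 11 were lower and 2 higher against both (28.4% and 9.78%). The medians were -0.46 and -0.03, beside -0.22 and -0.12 for all genes. KAO2, an ent-kaurenoic acid oxidase of gibberellin synthesis, averaged 10.5 ± 0.94 FPKM in dellaq, 36.7 ± 0.782 FPKM in lec1-4, 31.5 ± 2.23 FPKM in Col-0-1 and 30.1 ± 2.81 FPKM in Col-0-2. Its dellaq log2 changes were -1.51 and -1.44 against Col-0-1 and Col-0-2 (limma, adjusted p = 1.12e-08 and 1.84e-08). RGL2, given above, had log2 changes of -2.25 and -1.68 (limma, adjusted p = 1e-08 and 9.62e-08). RGA1 averaged 20.8 ± 0.252 FPKM in dellaq, 27.5 ± 1.09 FPKM in lec1-4, 28.2 ± 1.11 FPKM in Col-0-1 and 25.6 ± 1.23 FPKM in Col-0-2. GAI averaged 8.98 ± 2.89 FPKM in dellaq, 9.19 ± 0.529 FPKM in lec1-4, 8.88 ± 0.961 FPKM in Col-0-1 and 8.55 ± 0.327 FPKM in Col-0-2. RGL3 averaged 7.999 ± 0.847 FPKM in dellaq, 7.82 ± 1.15 FPKM in lec1-4, 6.55 ± 0.611 FPKM in Col-0-1 and 6.46 ± 0.593 FPKM in Col-0-2. RGA1 was lower in dellaq against both sets (limma, adjusted p = 1.2e-05 and 0.000296), and GAI and RGL3 were not called. GAI, RGA1, RGL2 and RGL3 are DELLA genes counted among the 26, and the labels do not say which are mutated in dellaq. For them a response and the mutation itself cannot be told apart. Of the 27 tested genes of the list with RGL1, 7 were lower and 3 higher in lec1-4 against Col-0-1 (10.7% and 15.8% of all tested genes), and 6 were lower and 15 higher against Col-0-2 (23.3% and 42.7%).

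Of the 6 genes for ubiquitin and kinase proteins, 4 were lower in lec1-4 than in Col-0-2 (23.3% of all tested genes), and 1, SDC, was higher than in Col-0-1 (15.8%). UBC31 (AT1G36340), a ubiquitin-conjugating enzyme, had 1.04, 3.21 and 0.488 FPKM in dellaq, 11.1, 11.7 and 10.7 FPKM in lec1-4, 11.7, 14.8 and 8.47 FPKM in Col-0-1 and 39.9, 31.2 and 34.9 FPKM in Col-0-2. It fell against Col-0-2 (-1.57, limma adjusted p = 0.000507). SDC (AT2G17690), an F-box gene silenced by DNA methylation in leaves, had 2.14, 2.7 and 1.21 FPKM in dellaq, 27.6, 28.4 and 25.5 FPKM in lec1-4, 16.3, 16.9 and 13.1 FPKM in Col-0-1 and 23.1, 23.4 and 23.6 FPKM in Col-0-2. Its lec1-4 libraries lay above all wild-type libraries, with a call against Col-0-1 (0.78, limma adjusted p = 0.00235) and none against Col-0-2 (0.21, adjusted p = 0.237). Of its exon bases, 80.2% overlap a gene on the opposite strand, so the value is uncertain. The cullin-family gene AT1G59800 was listed at 0 in 2 dellaq libraries, with 0, 0.81 and 0 FPKM in dellaq, 3.48, 4.27 and 3.13 FPKM in lec1-4, 4.64, 5.94 and 2.55 FPKM in Col-0-1 and 15.1, 14.2 and 14.7 FPKM in Col-0-2. AT2G21420, with an IBR zinc domain, averaged 0.461 ± 0.411 FPKM in dellaq, 5.38 ± 1.75 FPKM in lec1-4, 5.27 ± 0.998 FPKM in Col-0-1 and 14.1 ± 2.05 FPKM in Col-0-2. The RING-type gene AT5G67120 averaged 0.626 ± 0.181 FPKM in dellaq, 4.82 ± 0.994 FPKM in lec1-4, 5.94 ± 1.3 FPKM in Col-0-1 and 6.6 ± 0.674 FPKM in Col-0-2. SnRK1.3, a sugar-sensing kinase homologue, averaged 0.5997 ± 0.611 FPKM in dellaq, 6.35 ± 1.31 FPKM in lec1-4, 5.55 ± 0.0277 FPKM in Col-0-1 and 6.23 ± 1.32 FPKM in Col-0-2.

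Of the 8 genes of enzymes and transport, 1 was lower and 1 higher in lec1-4 against Col-0-2 (23.3% and 42.7% of all tested genes), and 1 was lower and 2 higher against Col-0-1 (10.7% and 15.8%). GLR2.4 (AT4G31710), a glutamate receptor-like channel, had 1.2, 0.784 and 0.742 FPKM in dellaq, 11, 10.9 and 9.63 FPKM in lec1-4, 6.84, 7.83 and 5.95 FPKM in Col-0-1 and 6.33, 7.02 and 6.73 FPKM in Col-0-2. The lec1-4 libraries lay above all 6 wild-type libraries (0.55 ± 0.11 against Col-0-1 and 0.58 ± 0.11 against Col-0-2, SE; limma, adjusted p = 0.00359 and 0.000688). AT1G55450, a methyltransferase, had 2.94, 1.78 and 1.36 FPKM in dellaq, 9.49, 8.84 and 7.61 FPKM in lec1-4, 14.5, 14.4 and 14.3 FPKM in Col-0-1 and 16.5, 28.6 and 23.8 FPKM in Col-0-2. Its lec1-4 libraries lay below all wild-type libraries (-0.68 and -1.29, limma adjusted p = 0.0208 and 8.99e-05). The call against Col-0-1 was lost without lec1-4 replicate 3, Col-0-1 replicate 1 or Col-0-1 replicate 3. SCPL34, a serine carboxypeptidase-like protein, was nearly even outside dellaq, at 10.04 ± 1.12 FPKM in dellaq, 52.5 ± 1.1 FPKM in lec1-4, 55 ± 3.25 FPKM in Col-0-1 and 50.2 ± 1.37 FPKM in Col-0-2. The subtilase AT5G45650 averaged 3.61 ± 0.159 FPKM in dellaq, 28.3 ± 3.13 FPKM in lec1-4, 21.2 ± 3.16 FPKM in Col-0-1 and 24.6 ± 2.34 FPKM in Col-0-2. It rose in lec1-4 against Col-0-1 (0.40, limma adjusted p = 0.0155). The terpene synthase family gene AT3G14520 averaged 3.42 ± 0.795 FPKM in dellaq, 20.2 ± 1.4 FPKM in lec1-4, 22.4 ± 4.29 FPKM in Col-0-1 and 21.6 ± 1.76 FPKM in Col-0-2. PUP1, a purine and cytokinin transporter, averaged 1.76 ± 0.503 FPKM in dellaq, 15.3 ± 1.14 FPKM in lec1-4, 12.3 ± 2.64 FPKM in Col-0-1 and 15.9 ± 0.286 FPKM in Col-0-2. The hydrolase AT1G52440 averaged 1.36 ± 1.02 FPKM in dellaq, 9.43 ± 1.88 FPKM in lec1-4, 14.9 ± 2.12 FPKM in Col-0-1 and 9.61 ± 1.37 FPKM in Col-0-2. AT1G31530, with a DNase I-like fold, averaged 0.205 ± 0.118 FPKM in dellaq, 4.28 ± 0.671 FPKM in lec1-4, 5.55 ± 2.87 FPKM in Col-0-1 and 6.4 ± 0.659 FPKM in Col-0-2. None of these 4 genes was called against either set.

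Of 13 genes of other annotated families, 11 were lower and 0 higher in lec1-4 against Col-0-2 (23.3% and 42.7% of all tested genes). Lower than in Col-0-1 were 2 (10.7%), AT1G78460 and the SAUR-like gene AT2G21220. AT1G78460, of the SOUL heme-binding family, had 6.87, 5.76 and 4.16 FPKM in dellaq, 18.9, 19.4 and 18.9 FPKM in lec1-4, 24.9, 30.4 and 24.1 FPKM in Col-0-1 and 31.7, 39.8 and 37.3 FPKM in Col-0-2. It was below both wild-type sets in lec1-4 (-0.45 and -0.89 against Col-0-1 and Col-0-2, limma adjusted p = 0.0297 and 0.000105). Its call against Col-0-1 was lost when any 1 lec1-4 library was left out, without Col-0-1 replicate 1 or 2, and with no filter on low values. AT3G54550, a protein with a DUF506 domain of unknown function, had 0.578, 1.44 and 0.42 FPKM in dellaq, 8.84, 11.1 and 14.3 FPKM in lec1-4, 13.2, 15.2 and 9.25 FPKM in Col-0-1 and 41.2, 35.6 and 36.7 FPKM in Col-0-2. It fell in lec1-4 against Col-0-2 (-1.67, limma adjusted p = 2.82e-05). The DUF239 genes AT5G05030, AT2G44250 and AT2G44240, of which the last 2 are neighbours, had their highest dellaq value in replicate 2. AT5G05030 had 0.886, 6.46 and 0.75 FPKM in dellaq, 17.8, 16.2 and 20.5 FPKM in lec1-4, 19.4, 23.4 and 9.78 FPKM in Col-0-1 and 50.9, 46.3 and 34.4 FPKM in Col-0-2. AT2G44250 averaged 1.85 ± 1.98 FPKM in dellaq, 13.4 ± 2.33 FPKM in lec1-4, 15.1 ± 5.01 FPKM in Col-0-1 and 41.1 ± 5.02 FPKM in Col-0-2. Both fell in lec1-4 against Col-0-2 (limma, adjusted p = 0.0335 and 0.0024). AT5G19240, a GPI-anchored glycoprotein precursor, averaged 4.53 ± 1.22 FPKM in dellaq, 18 ± 3.53 FPKM in lec1-4, 21.9 ± 2.19 FPKM in Col-0-1 and 28.2 ± 3.49 FPKM in Col-0-2. MLP43, of the major latex protein family, averaged 2.77 ± 0.686 FPKM in dellaq, 12.4 ± 0.771 FPKM in lec1-4, 14.8 ± 0.739 FPKM in Col-0-1 and 22.7 ± 0.207 FPKM in Col-0-2. NIP1 (AT2G17750), which anchors a plastid RNA polymerase to the thylakoid membrane, had 0.347, 3.47 and 0.539 FPKM in dellaq, 9.74, 9.59 and 12.7 FPKM in lec1-4, 11.4, 14.2 and 4.74 FPKM in Col-0-1 and 22.8, 19.3 and 14.7 FPKM in Col-0-2 and was called against neither set. AT2G21220 averaged 1.35 ± 0.486 FPKM in dellaq, 10.8 ± 3.02 FPKM in lec1-4, 16.9 ± 1.72 FPKM in Col-0-1 and 12.1 ± 1.72 FPKM in Col-0-2. The lec1-4 log2 change was -0.64 against Col-0-1 (limma, adjusted p = 0.0268). The remaining genes, all lower in lec1-4 than in Col-0-2, were AT2G44240, AT5G38960 (a cupin), AT3G18470 (PLAC8 family), AT5G54710 (ankyrin repeats) and AT2G04750 (actin-binding), with log2 changes from -1.92 to -1.02.

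Of 12 uncharacterized or noncoding genes, 9 were lower and 1 higher in lec1-4 against Col-0-2 (23.3% and 42.7% of all tested genes), and 0 were lower and 1 higher against Col-0-1 (10.7% and 15.8%). AT4G02830, an uncharacterized protein, was the one that was higher against both, with 3.09, 3.67 and 3.16 FPKM in dellaq, 58.2, 78.5 and 69.4 FPKM in lec1-4, 28.7, 31.6 and 20.4 FPKM in Col-0-1 and 32.8, 22.4 and 23.8 FPKM in Col-0-2. All lec1-4 libraries lay above all 6 wild-type libraries (1.33 ± 0.17 and 1.36 ± 0.17, SE; limma, adjusted p = 0.000114 and 1.82e-05). AT2G01667, a transcript model of 102 bases whose FPKM is uncertain because so few fragments fit in it, had 20.4, 129.9 and 21.4 FPKM in dellaq, 252, 330.3 and 368 FPKM in lec1-4, 417, 490.5 and 230 FPKM in Col-0-1 and 1286, 1204 and 978 FPKM in Col-0-2. AT2G19802 and the noncoding RNA AT2G19796, with 1 annotated gene between them, had the same order of libraries within dellaq, lec1-4, Col-0-1 and Col-0-2. AT2G19802 had 6.81, 36.2 and 1.92 FPKM in dellaq, 97.9, 129.5 and 138 FPKM in lec1-4, 133, 168 and 90.9 FPKM in Col-0-1 and 364, 307 and 272 FPKM in Col-0-2. AT2G19796 had 10.5, 35.4 and 8.47 FPKM in dellaq, 117, 137.6 and 138.3 FPKM in lec1-4, 123, 184 and 94.7 FPKM in Col-0-1 and 315, 293 and 254 FPKM in Col-0-2. In lec1-4 AT2G19796 fell against Col-0-2 (-1.13, limma adjusted p = 0.0231), and AT2G19802 was not called (-1.36, adjusted p = 0.0798). AT3G49307 averaged 11.1 ± 4.78 FPKM in dellaq, 84.8 ± 12.4 FPKM in lec1-4, 100.3 ± 22.2 FPKM in Col-0-1 and 163 ± 7.33 FPKM in Col-0-2. AT2G25510 averaged 11.8 ± 8.56 FPKM in dellaq, 50.4 ± 16.1 FPKM in lec1-4, 60.3 ± 21 FPKM in Col-0-1 and 117 ± 22.3 FPKM in Col-0-2. Both fell in lec1-4 against Col-0-2 (limma, adjusted p = 0.00257 and 0.0135). AT1G52696, a pseudogene with the lowest ratio of lec1-4 to dellaq, had 2.65, 3.39 and 1.3 FPKM in dellaq, 6.39, 6.76 and 10.1 FPKM in lec1-4, 14.7, 15.7 and 8.53 FPKM in Col-0-1 and 20.03, 16.8 and 15 FPKM in Col-0-2. It fell in lec1-4 against Col-0-2 (-1.08, limma adjusted p = 0.00266). AT3G27321, the other pseudogene, averaged 0.929 ± 1.39 FPKM in dellaq, 6.51 ± 0.868 FPKM in lec1-4, 7.2 ± 1.5 FPKM in Col-0-1 and 26.1 ± 6.59 FPKM in Col-0-2. Of the uncharacterized genes AT5G11220, AT1G65490, AT3G29633 and AT4G18320, the first 3 also fell against Col-0-2, and AT4G18320 was called against neither set. For AT3G29633 the libraries overlapped, with 4.99, 5.46 and 6.82 FPKM in lec1-4 and 19.3, 27.4 and 6.28 FPKM in Col-0-2 (limma, adjusted p = 0.0281).

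Markers of the seed tissues and of the fruit wall were measured in the same libraries. Their counts are set against all tested genes, of which 50.9% were lower and 19.4% higher in dellaq against Col-0-1, and 41.6% and 21.9% against Col-0-2. For lec1-4 the shares of all tested genes were 10.7% lower and 15.8% higher against Col-0-1, and 23.3% and 42.7% against Col-0-2. The 10 seed coat markers, of which BAN, TT12 and TT16 are also in the flavonoid list and MUM2, MUM4, GL2 and AT3G50990 in the mucilage list, summed to 536 to 645 FPKM in dellaq and 1228 to 1426 FPKM in lec1-4, against 1085 to 1284 FPKM in Col-0-1 and 1520 to 1635 FPKM in Col-0-2. In dellaq 10 of 10 were lower than in Col-0-1 and 9 of 10 lower than in Col-0-2, with 0 higher and none at 0. The defining seed coat gene STK averaged 47 ± 1.99 FPKM in dellaq, 60.5 ± 2.1 FPKM in lec1-4, 53.6 ± 2.15 FPKM in Col-0-1 and 83.5 ± 10.8 FPKM in Col-0-2. GL2 averaged 61.9 ± 7.69 FPKM in dellaq, 212 ± 30.6 FPKM in lec1-4, 187 ± 17.4 FPKM in Col-0-1 and 139 ± 7.63 FPKM in Col-0-2. In lec1-4, 0 seed coat markers were lower and 1 higher against Col-0-1, and 4 were lower and 3 higher against Col-0-2. The 5 fruit wall markers summed to 32.5 to 34.4 FPKM in dellaq and 77.4 to 94.2 FPKM in lec1-4, against 83.0 to 91.0 FPKM in Col-0-1 and 45.6 to 48.3 FPKM in Col-0-2. In dellaq 4 of 5 were lower than in Col-0-1, and 3 lower and 1 higher against Col-0-2. The fruit wall gene AGL8 averaged 2.23 ± 0.0278 FPKM in dellaq, 16.8 ± 1.64 FPKM in lec1-4, 15.5 ± 0.304 FPKM in Col-0-1 and 5.05 ± 1.74 FPKM in Col-0-2. RPL averaged 9.8 ± 0.627 FPKM in dellaq, 19.1 ± 1.53 FPKM in lec1-4, 18.2 ± 0.956 FPKM in Col-0-1 and 14.4 ± 0.951 FPKM in Col-0-2. ALC was the largest part of the fruit wall sum in every group. It averaged 17.3 ± 1.23 FPKM in dellaq, 46.3 ± 4.93 FPKM in lec1-4, 45.6 ± 4.44 FPKM in Col-0-1 and 24 ± 0.569 FPKM in Col-0-2. In lec1-4, 0 fruit wall markers were lower and 4 higher against Col-0-2, and 1 was lower and 0 higher against Col-0-1. The CTL2, IRX15 and LAC2 levels, like the fruit wall sum, were lowest in dellaq and next lowest in Col-0-2. The choice of the genes set dellaq below wild type. CA1, CA2, RBCS2B, TGG2, RGL1 and AT5G50915 had the same order, so it is not particular to these wall genes and nothing is read from it.

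The 12 endosperm markers summed to 177 to 194 FPKM in dellaq and 182 to 193 FPKM in lec1-4, against 216 to 232 FPKM in Col-0-1 and 260 to 271 FPKM in Col-0-2. Of 10 tested, 5 were lower and 2 higher in dellaq against Col-0-1, close to the shares of all tested genes (50.9% and 19.4%), and 7 were lower and 1 higher against Col-0-2 (41.6% and 21.9%). WRKY10 and IKU2 were at 0 in dellaq, and IKU2 also in both wild-type sets. SUC5 was the largest part of the endosperm sum in dellaq and in both wild-type sets. It averaged 97.6 ± 4.91 FPKM in dellaq, 54.1 ± 3.22 FPKM in lec1-4, 83.6 ± 1.94 FPKM in Col-0-1 and 137 ± 6.81 FPKM in Col-0-2. YUC10, an endosperm auxin synthesis gene, averaged 28.3 ± 3.37 FPKM in dellaq, 3.02 ± 0.244 FPKM in lec1-4, 7.94 ± 1.48 FPKM in Col-0-1 and 6.36 ± 0.876 FPKM in Col-0-2. ALE1, an endosperm protease that acts on the embryo surface, averaged 24.1 ± 3.76 FPKM in dellaq, 56.1 ± 2.92 FPKM in lec1-4, 74.2 ± 5.93 FPKM in Col-0-1 and 50.6 ± 1.7 FPKM in Col-0-2. In lec1-4, 3 endosperm markers were lower and 1 higher against Col-0-1 (10.7% and 15.8% of all tested genes), and 4 were lower and 2 higher against Col-0-2 (23.3% and 42.7%). The 10 embryo markers summed to 793 to 896 FPKM in dellaq and 802 to 883 FPKM in lec1-4, against 805 to 809 FPKM in Col-0-1 and 515 to 569 FPKM in Col-0-2. Of 9 tested, 3 were lower and 1 higher in dellaq against Col-0-1, both under the shares of all tested genes (50.9% and 19.4%), and 3 were lower and 3 higher against Col-0-2 (41.6% and 21.9%). LEC2, an embryo regulator, averaged 4.74 ± 0.464 FPKM in dellaq, 28.3 ± 3.15 FPKM in lec1-4, 16.7 ± 2.26 FPKM in Col-0-1 and 14.1 ± 1.31 FPKM in Col-0-2. The epidermal gene PDF1 averaged 468 ± 26.8 FPKM in dellaq, 592 ± 38 FPKM in lec1-4, 409 ± 2.7 FPKM in Col-0-1 and 232 ± 19.7 FPKM in Col-0-2. PDF1 was the largest part of the embryo sum in every group, so the sum follows it more than any other marker. In lec1-4, 3 embryo markers were lower and 3 higher against Col-0-1, and 2 were lower and 4 higher against Col-0-2. LEC1 itself, the gene that lec1-4 is named for, is on the list and among the lower genes against each set. Its log2 changes were -4.42 against Col-0-1 and -5.04 against Col-0-2, so its calls say nothing about other embryo genes. The median log2 changes of the markers in dellaq were -1.06 and -0.98 (seed coat), -1.35 and -0.45 (fruit wall), -0.31 and -0.78 (endosperm) and -0.25 and -0.17 (embryo) against Col-0-1 and Col-0-2. The part of tissue composition in the levels of the 88 genes was not tested.

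**Figure D5:**
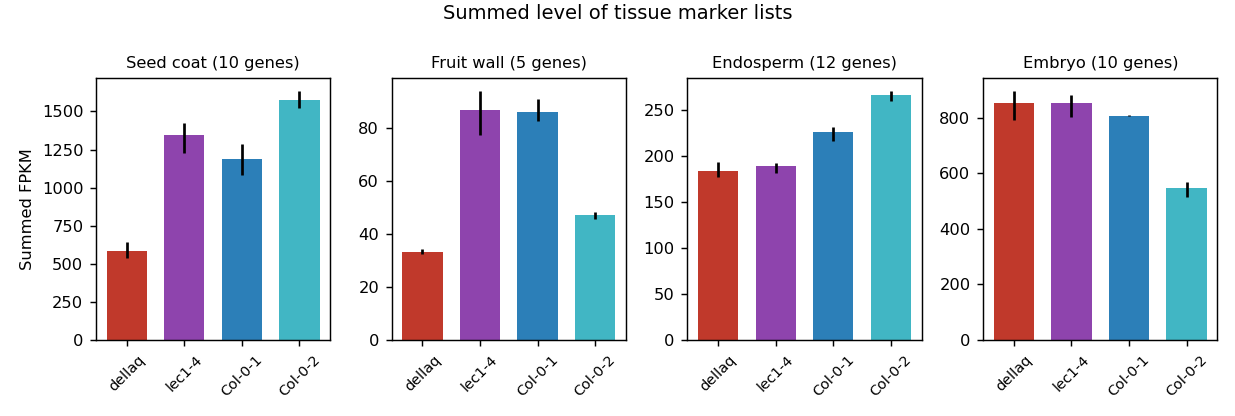
Summed FPKM of 4 tissue marker lists in each group; bars are the means of 3 libraries and lines run from the lowest to the highest library, with each panel on its own axis from 0. Seed coat and fruit wall marker sums are lowest in dellaq, fruit wall sums are about as high in lec1-4 as in Col-0-1, and embryo sums are lowest in Col-0-2. Each sum is weighted towards its most abundant genes and is not an amount of tissue.

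The wild-type sets differed for these genes, as a description. The Col-0-2 mean was above the Col-0-1 mean in 66 of the 88 genes and in 41.7% of all tested genes, and the median log2 difference, Col-0-2 minus Col-0-1, was 0.58 for the 88 genes and -0.10 for all genes. It was at least 2 times higher in Col-0-2 in 29 genes, AT4G15750, AT1G59930 and CER2 among them. The 6 genes at least 2 times higher in Col-0-1 were CA1, RBCS2B, TGG2, CTL2, LAC2 and IRX15. A lec1-4 level between the 2 wild-type means was found in 25 genes, below both in 47 and above both in 16. The choice for high wild-type means favours a level below both, and limma called 6 genes lower against both sets. Shares over all tested genes were not computed for these counts or for the genes 2 times apart, and nothing is read from them.

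The 88 genes were shorter than most. Their median exon length was 1224 bases, against 1736 bases for tested genes, and 17.0% were under 600 bases, against 3.93%. Median GC content was 40.0%, against 41.1%. By chromosome there were 28 on chromosome 1, 15 each on chromosomes 2 and 3, 9 on chromosome 4 and 21 on chromosome 5, and the largest difference from all tested genes was on chromosome 1 (31.8%, against 26.6%). In the 250 bases before the annotated start, on either strand, the G-box CACGTG was present in 6.82% of the genes (7.38% of tested genes), the RY core CATGCA in 7.95% (7.86%), CCAAT in 40.9% (47.3%), the MYB-type ACCNANC in 27.3% (28.5%) and GATAAG in 18.2% (12.4%). These matches are letters in a window and are not sites.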

How the data were processed

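Poly-A RNA of whole seeds was sequenced in 12 libraries of 4 groups, from 3 µg RNA each and with no strand marking described. The authors deposited FPKM per gene, per the file headers. The submitters' processing notes list 4 tools with no role for any: HTSeq 0.6.1, DESeq 1.18.0, TopHat2 2.0.12 and Bowtie2 2.2.3. The genome build, annotation and counting mode were not given in the sources used here. No sequence was read by coordinates for printing.

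All 33602 IDs were read, with 0 columns left unmapped. Tests used limma 3.58.1 (R 4.3.3) on log2(FPKM + 1), with all 12 libraries in 1 fit, on the 20222 genes with at least 1 FPKM in 3 libraries, all 88 among them, and Benjamini-Hochberg adjustment over those genes at 0.05. Standard errors come from that fit, and means carry the SD of 3 libraries. FPKM hold no counts, so no counting intervals are given. Depth was estimated from steps between low FPKM values, of which 55.9% to 63.6% lay within 0.03 of a whole fragment, so it is approximate. The fit was tested on simulated data. Names, exon lengths, GC content and promoters were matched by locus tag to RefSeq TAIR10.1 (32835 IDs matched), whose build may differ from the authors'.

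The 88 genes and all lists were chosen with earlier results of these data known. Named genes were the 7 that are in a pathway list, the 10 with the largest smaller ratio, those next to the threshold, those called against both wild-type sets, up to 6 per functional group by wild-type level, and up to 2 others per list by the larger of the 2 dellaq p-values; others were named after their values were seen. The lists were flavonoid and tannin, gibberellin, mucilage, secondary wall, photosynthesis, seed coat, endosperm, embryo and fruit wall genes. Alternatives were other pseudocounts, thresholds, filters, scalings and fits, a replicate block, and leaving out each library.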

Additional observations from a re-analysis of the deposited data

How the results depend on the processing

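The number of genes chosen was 16 where every dellaq library had to be 4 times below every wild-type library, 350 with a pseudocount of 0.1 and 24 with 5, and 191 with a ratio of 3 and 20 with 6. It was 61 with median-ratio and 71 with upper-quartile scaling, and 63 to 112 with 1 library left out. The numbers called in lec1-4 with 1 library left out were 40 to 50 lower and 12 to 13 higher against Col-0-2, 4 to 13 lower and 8 to 16 higher against Col-0-1, and 3 to 10 lower and 4 to 6 higher against both sets. A fold limit of 1 on the log2 scale left 7 higher against Col-0-2, 1 lower and 4 higher against Col-0-1, and 0 lower and 1 higher against both. With no filter on low values 6 were lower against Col-0-1, and with only the libraries of the groups compared 8 were higher against both. The cause of the last 2 was not tested. Same-numbered lec1-4 and wild-type libraries did not deviate together (correlations of 0.03, 0.19 and 0.08 with Col-0-1, and -0.07, -0.08 and -0.07 with Col-0-2). A replicate block gave 45 lower and 13 higher against Col-0-2, 10 and 16 against Col-0-1, and 6 and 6 against both. Over 176 gene values and 19 other settings, 0 changed direction while called, and 22 of 84 called values lost their call in at least 1 setting, and 24 uncalled values gained one. FPKM without counts limit the precision of the lowest genes, and 3 libraries per group that may be technical replicates limit all of it.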

Other observations

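Several of the 88 genes lie close together on a chromosome. AT1G26796 and AT1G26797, and AT2G44240 and AT2G44250, are adjacent with 0 annotated genes between them, on the same strand. AT1G13607 and AT1G13609, and AT2G19796 and AT2G19802, have 1 gene between them, AT1G31530 and ECS1 have 3, and AT3G49270 and AT3G49307 have 4. Whether reads are shared between neighbours was not tested.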
